A study of Mus musculus with 78 samples.

Results

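The 10 genes described here encode the core of the basement membrane and the matrix proteins bound to it: the type IV collagen chains Col4a1 and Col4a2, the laminin chains Lama1, Lamb1 and Lamc1, the linkers and heparan sulfate bearing components Nid1, Hspg2 and Col18a1, and the matrix glycoproteins Sparc and Fn1. They are 10 of the 55401 genes listed in the count tables. They were chosen by the measured RNA-seq change of Col4a1 over the time course, with earlier results known in which Col4a1 was among the genes with the greatest increases after 48 h of ZFP143 depletion. The time course values of the members are therefore a description without a test, while TT-seq and the retinoic acid (RA) experiment were tested.

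All libraries came from E14TG2a mouse embryonic stem cells (mESCs) carrying the ZFP143-FKBP genotype, in which the transcription factor ZFP143 is fused to the FKBP12 F36V degron with a 2xHA tag and GFP, so the control libraries carried the fusion as well. Depletion was induced with 500 nM dTAG-V1, which brings the fusion protein to the VHL ubiquitin ligase, and DMSO was the control. Nascent RNA was measured by TT-seq (10 min of 4-thiouridine labelling) in DMSO and at 2, 6 and 24 h of dTAG-V1, and steady-state RNA by RNA-seq in DMSO and after 24, 48 and 72 h. In the RA experiment cells received DMSO or dTAG-V1 for 24 h (the groups DMSO and dTAG), or were then washed and kept for 24 h more in N2B27 differentiation medium with RA and the same agent (DMSO RA and dTAG RA, the latter with 48 h of depletion). Every group had 2 libraries. RA and the new medium came together, so their effects cannot be told apart, and dTAG RA had a longer depletion than dTAG. All libraries came from an engineered degron line of 1 parental cell line, and an untagged line treated with dTAG-V1 was not analysed here.

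A basement membrane is a thin sheet of extracellular matrix under epithelia and around other tissues. Laminin heterotrimers, built from an alpha, a beta and a gamma chain, bind cell surface receptors and polymerize, and a network of type IV collagen triple helices gives the sheet its mechanical strength. Col4a1 and Col4a2 encode the chains of the most widespread type IV collagen and lie head to head, sharing the region from which both are transcribed. Nidogen 1 and perlecan, the products of Nid1 and Hspg2, connect the laminin and collagen networks. In the early mouse embryo laminin and type IV collagen are made by the extraembryonic endoderm, whose parietal layer lays down the thick Reichert's membrane, and RA is classically used to induce the same genes in embryonal carcinoma cells.

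Sequences of a pair of regulatory regions are shown to place the results at the DNA level. The first holds the 191 bases before the first annotated start of Lamb1, on the plus strand at chr12:31265043-31265233 of GRCm38.p6. The other is the ZFP143 peak upstream of Lamc1, the single ZFP143 peak found at a member's promoter, read on the strand of the gene at chr1:153333160-153333418. The Lamb1 stretch was taken from RefSeq and the Lamc1 peak from the reference genome of the same build, and capitals mark matches to the searched motifs on either strand.
Lamb1: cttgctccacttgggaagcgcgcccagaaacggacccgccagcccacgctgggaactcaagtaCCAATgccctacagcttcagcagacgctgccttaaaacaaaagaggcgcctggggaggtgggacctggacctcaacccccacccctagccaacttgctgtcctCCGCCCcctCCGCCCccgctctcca
Lamc1: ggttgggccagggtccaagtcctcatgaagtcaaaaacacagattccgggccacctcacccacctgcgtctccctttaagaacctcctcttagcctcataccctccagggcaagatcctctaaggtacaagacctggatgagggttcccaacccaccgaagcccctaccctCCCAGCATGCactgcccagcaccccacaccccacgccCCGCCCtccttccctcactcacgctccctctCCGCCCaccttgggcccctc

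The capitals in the Lamb1 stretch are a CCAAT box followed by a pair of GC boxes (GGGCGG, read as CCGCCC), and those in the Lamc1 peak a match to CCCA followed, 2 bases on, by ATGC, a core of the known ZFP143 binding motif, and then 2 GC boxes. RefSeq windows from 250 bases before to 50 bases after a start were found for 7 of the 10 members (8 windows, as Col18a1 has a pair), and Lama1, Lamc1 and Fn1 had none. Neither this pair nor ACTACA, the other searched core of the ZFP143 motif, occurred on either strand in any of these 8 windows. Over all 32544 windows of this length 1.89% held the pair and 10.3% ACTACA, against 22.5% and 38.0% of the 3189 ZFP143 peaks, read as 259 bases about their centres. The GC box occurred 5 times in the Hspg2 window, 3 times in those of Col4a2 and of one Col18a1 start, 2 times in that of Lamb1 and 1 time each in those of Col4a1 and Nid1 and 35.9% of all windows held it. A CCAAT box was present in the windows of Col4a1, Col4a2, Lamb1, Nid1 and one Col18a1 start, against 37.4% of all windows, and TATAAA in no member's window against 13.6%. The windows of Col4a1 and Col4a2, which overlap by 78 bp, had 74.0% and 73.7% G and C, and the other members' windows between 55.3% (Sparc) and 70.3% (Hspg2), with a median of 53.0% over all windows. The cells are of a 129 strain and the reference of another, so single bases may differ.

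The genes lie on 8 chromosomes. In the annotation of mm10, Col4a1 spans chromosome 8 from 11198423 to 11312826 on the minus strand and Col4a2 spans 11312805 to 11449287 on the plus strand, so that their ends overlap by 22 bp. Lamb1 lies on chromosome 12 from 31265234 to 31329644, Lamc1 on chromosome 1 from 153218922 to 153332786, Col18a1 on chromosome 10 from 77052178 to 77166548 and Sparc on chromosome 11 from 55394500 to 55423183. Lama1 lies on chromosome 17 from 67697259 to 67822647, Nid1 on chromosome 13 from 13437551 to 13512269, Fn1 on chromosome 1 from 71585520 to 71653200 and Hspg2 on chromosome 4 from 137468769 to 137570630. Col18a1 overlaps the folate carrier gene Slc19a1 on the opposite strand over 8825 bp, and predicted genes on the opposite strand overlap Col4a1 over 6081 bp, Col4a2 over 18707 bp and Nid1 over 8063 bp. TT-seq reads were split by strand before counting, whereas the strand setting of the RNA-seq counts is not given in the sources used here, so reads of overlapping genes may be shared there.

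Library totals were 9721568 to 16532077 counts in TT-seq, 10261851 to 15316700 in the time course of RNA-seq and 13890761 to 27089033 in the RA experiment, and the members took 0.217 to 0.268%, 0.346 to 0.473% and 0.338 to 0.555% of them. The filter asked for over 10 counts in 4 or more of the 8 libraries in a table, which all 10 members met in each, as did 17870, 13925 and 15915 genes in all. Levels are given in CPM, each library's counts brought to a common total with TMM scaling, and the contrasts of a table share libraries, such as those of DMSO. The spread between replicates was widest in TT-seq, with a biological coefficient of variation of 17.2% against 3.65% for the time course of RNA-seq and 5.92% for the RA experiment. All 10 markers of naive pluripotency were detected in every group, with a summed level of 6111 to 6189 CPM in DMSO of the RNA-seq time course. Zfp143 RNA itself was 43.5 ± 0.902 CPM (SD, n = 2) in DMSO and 92.9 ± 3.32, 94.2 ± 1.22 and 108 ± 4.60 CPM after 24, 48 and 72 h. The degron acts on the protein, so this RNA does not check the depletion.

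In DMSO-treated mESCs of the time course the members differed widely in abundance, and type IV collagen was at the bottom. Per kilobase of exonic length, the DMSO libraries of the time course held 168 ± 4.24 CPM of Fn1 (SD, n = 2), 90.1 ± 3.27 of Lamc1, 76.6 ± 1.95 of Nid1 and 70.2 ± 1.46 of Sparc. Perlecan, collagen XVIII and the laminin alpha chain formed a middle group, with 12.8 ± 0.0535 CPM per kilobase for Col18a1, 12.1 ± 0.255 for Hspg2 and 11.0 ± 0.575 for Lama1. Lamb1 followed with 3.69 ± 0.173, then Col4a1 with 0.191 ± 0.0267 and Col4a2 with 0.119 ± 0.0469 CPM per kilobase. The 2 libraries of neighbours in this order did not overlap. With the length of the longest transcript in place of the union of exons, Sparc moved above Lamc1 and Nid1, and 7 of 10 members kept their rank. The nascent RNA in TT-seq, per kilobase of gene span, was again highest for Fn1 (12.6 ± 0.422 CPM) and lowest for Col4a1 (0.0487 ± 0.0345) and Col4a2 (0.0355 ± 0.0160), which overlapped. In DMSO of the RA experiment Col4a2 was again lowest, but Col4a1 (2.13 ± 0.251 CPM per kilobase) was near Lamb1 (2.02 ± 0.108). With the longest transcript Lamb1 was higher than Col4a1 there (3.47 against 2.41). The laminin chains of 1 trimer were thus present at unequal RNA levels, with the gamma chain above the alpha chain and the alpha chain above the beta chain.

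The RNA-seq time course described how steady-state RNA of the members moved over 3 days of depletion. Col4a1 and Col4a2 had the widest differences. Col4a1 was at 1.28 and 1.56 CPM in the DMSO libraries, and its libraries held 12.2 and 11.5 (24 h), 40.0 and 36.7 (48 h), and 63.3 and 60.8 CPM (72 h). These levels rest on 14 and 22 counts in the DMSO libraries and on 686 and 894 at 72 h. Each later time point lay above the earlier one in both libraries, and the fold against DMSO was 8.19 at 24 h, 26.5 at 48 h and 42.7 at 72 h, with log2 differences of 3.03 ± 0.19, 4.73 ± 0.15 and 5.42 ± 0.14 (SE). In bulk libraries, more (or fewer) cells of a type and more (or less) RNA per cell cannot be told apart.

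Col4a2 went the same way from a lower start. Its 2 DMSO libraries held 1.01 and 0.569 CPM, those at 24 h 8.94 and 6.46, those at 48 h 14.1 and 16.3, and those at 72 h 22.6 and 19.5. The log2 differences from DMSO were 3.33 ± 0.29, 4.30 ± 0.25 and 4.76 ± 0.23 (SE). Per kilobase, the chains had 0.191 and 0.119 CPM in DMSO and 8.31 ± 0.233 and 3.18 ± 0.336 CPM (SD, n = 2) at 72 h, Col4a1 being the higher of the pair. At 72 h Col4a1 per kilobase was above Lamb1 (4.68 ± 0.123) and below Lama1 (13.3 ± 0.734). Col18a1 was at 7.83 ± 0.284, and its order against Col4a1 turned with the longest transcript (9.82 against 9.38).

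**Figure D1:**
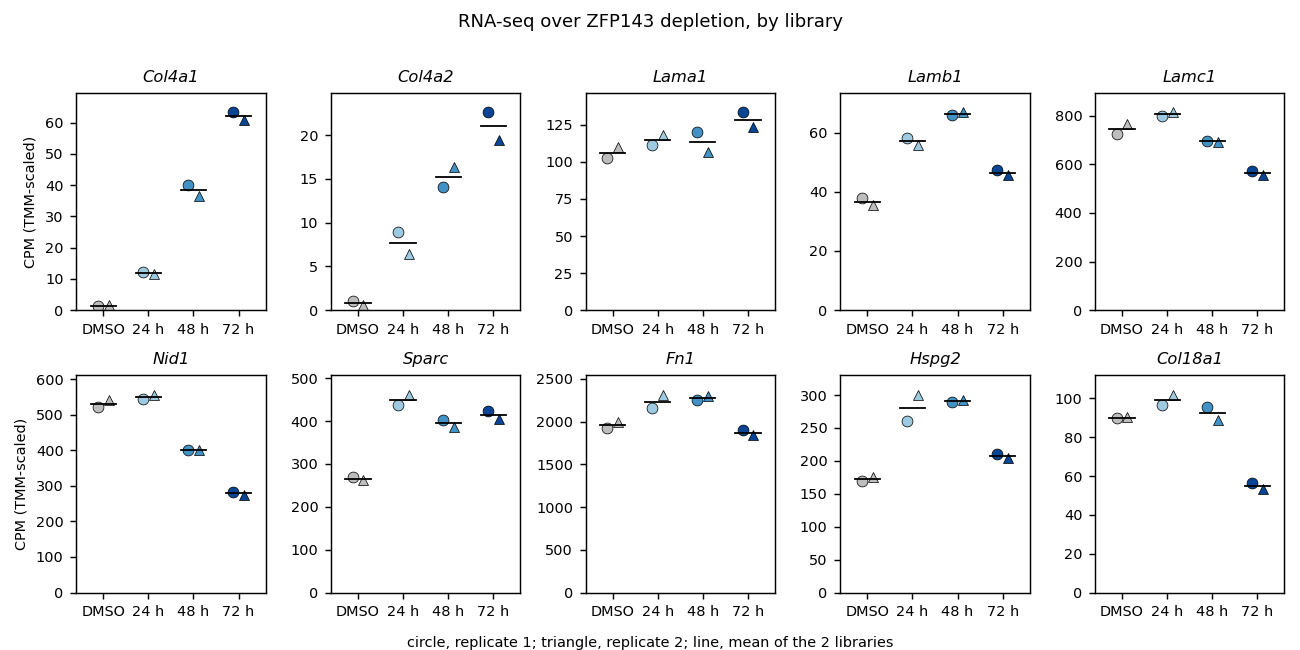
Level of each member in the RNA-seq time course, in CPM on a linear axis from 0 that differs between panels, by treatment group. Circles and triangles are replicates 1 and 2, and the bar is their mean. Col4a1 and Col4a2 go from 0.569 to 1.56 CPM in DMSO to 60.8 to 63.3 and 19.5 to 22.6 CPM at 72 h, while Nid1, Lamc1 and Col18a1 end below DMSO.

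The laminin chains differed less from DMSO than type IV collagen, and in different directions. Lamb1 was at 37.9 and 35.4 CPM in DMSO, and its libraries held 58.2 and 55.8 (24 h), 66.0 and 66.8 (48 h) and 47.2 and 45.5 CPM (72 h), a course that peaked at 48 h with a log2 difference of 0.86 ± 0.07 (SE) and was 0.34 at 72 h. Lama1, the alpha chain, went from 102 and 110.2 CPM in DMSO to 133 and 123 at 72 h, a log2 difference of 0.27. Lamc1, the gamma chain, was at 726 and 765 CPM in DMSO, then at 798 and 814 (24 h) and 571 and 558 (72 h), a log2 difference of -0.40 at 72 h.

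The linkers and the collagen XVIII gene differed from type IV collagen at the end of the time course. Nid1 was at 522 and 541 CPM in DMSO, then at 544 and 556 (24 h), 399.8 and 401 (48 h) and 284 and 274 (72 h), with log2 differences of 0.05, -0.41 and -0.93. Col18a1, whose product can be cut to release endostatin, was at 89.7 and 90.3 CPM in DMSO, then at 96.7 and 102 (24 h), 95.8 and 88.7 (48 h) and 56.4 and 53.5 (72 h). Both lay below their DMSO libraries at 72 h, as did 41.9% of all genes tested. Hspg2 was at 170.0 and 175 CPM in DMSO, then at 260.2 and 300.2 (24 h), 289 and 292 (48 h) and 210.1 and 204 (72 h), and so shared the transient course of Lamb1.

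Of the glycoproteins, Sparc, a collagen-binding protein, was at 269.6 and 262 CPM in DMSO and 439 and 461 at 24 h, and stayed above DMSO at 48 h (403 and 387) and 72 h (423 and 404). Of all genes tested, 36.7%, 41.5% and 43.3% lay above both DMSO libraries at 24, 48 and 72 h. Fn1, the most abundant member, ranged from 1842 to 2312 CPM over all 8 libraries, with log2 differences between -0.07 and 0.21. With the threshold used for RNA-seq (edgeR glmTreat against a 1.5-fold change, adjusted p below 0.01 over all genes), Col4a1, Col4a2 and Sparc were past it at 24 h, where 2.32% of all genes were higher and 3.41% lower. At 48 h Col4a1, Col4a2, Lamb1 and Hspg2 were past it (10.5% of all genes higher and 7.71% lower), and at 72 h Col4a1 and Col4a2 were higher and Nid1 lower (13.7% and 12%). These counts describe genes chosen with this contrast in view, so nothing is read from them. The median log2 difference of the 10 members was 0.41, 0.39 and 0.26 at the 3 time points, against 0.02, 0.01 and 0.02 over all genes tested. Scaling by library size alone moved the median of all genes to 0.15, 0.21 and 0.23, and put 4, 5 and 4 members past the threshold, with all genes then at 495 higher and 385 lower, 2047 and 698, and 2736 and 1109. Sparc, with a fold of 1.49 at 48 h, lay just under the 1.5-fold bound, and Lamb1 and Hspg2, with folds of 1.56 and 1.62 at 24 h, lay over it without passing the threshold.

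TT-seq asked whether transcription of the members changed over the first day. No member passed the test at 2 h or 6 h, and the point estimates for type IV collagen at these times were near 0 or below it. Col4a1 was at 2.78 and 8.36 CPM in DMSO, and its libraries held 2.54 and 6.67 (2 h), 4.28 and 5.27 (6 h), and 10.4 and 25.1 CPM (24 h). The 24 h libraries lay above both DMSO libraries, as did those of 23.8% of all genes tested. The replicates were far apart in DMSO, at 2 h and at 24 h. The log2 change at 24 h was 1.65 (95% interval 0.29 to 3.02, adjusted p = 0.154 in edgeR), and those at 2 h and 6 h were -0.28 (-1.68 to 1.12) and -0.25 (-1.67 to 1.17). The 24 h change ranged from 0.88 without the second 24 h library to 2.69 without the second DMSO library, and was not called in either case.

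Col4a2 nascent RNA was at 3.30 and 6.38 CPM in DMSO, then at 3.50 and 4.20 (2 h), 5.21 and 4.94 (6 h) and 8.43 and 14.0 (24 h). Again the 24 h libraries stood above the others, and those of 23.8% of all genes tested stood above DMSO. Its log2 change at 24 h was 1.20 (0.39 to 2.01, adjusted p = 0.0922 in edgeR), short of the threshold, and ranged from 0.79 to 1.79 when the same libraries were left out. Between 2 h and 24 h, log2 differences were 1.93 (0.56 to 3.30, adjusted p = 0.187) for Col4a1 and 1.54 (0.73 to 2.36, adjusted p = 0.114) for Col4a2.

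**Figure D2:**
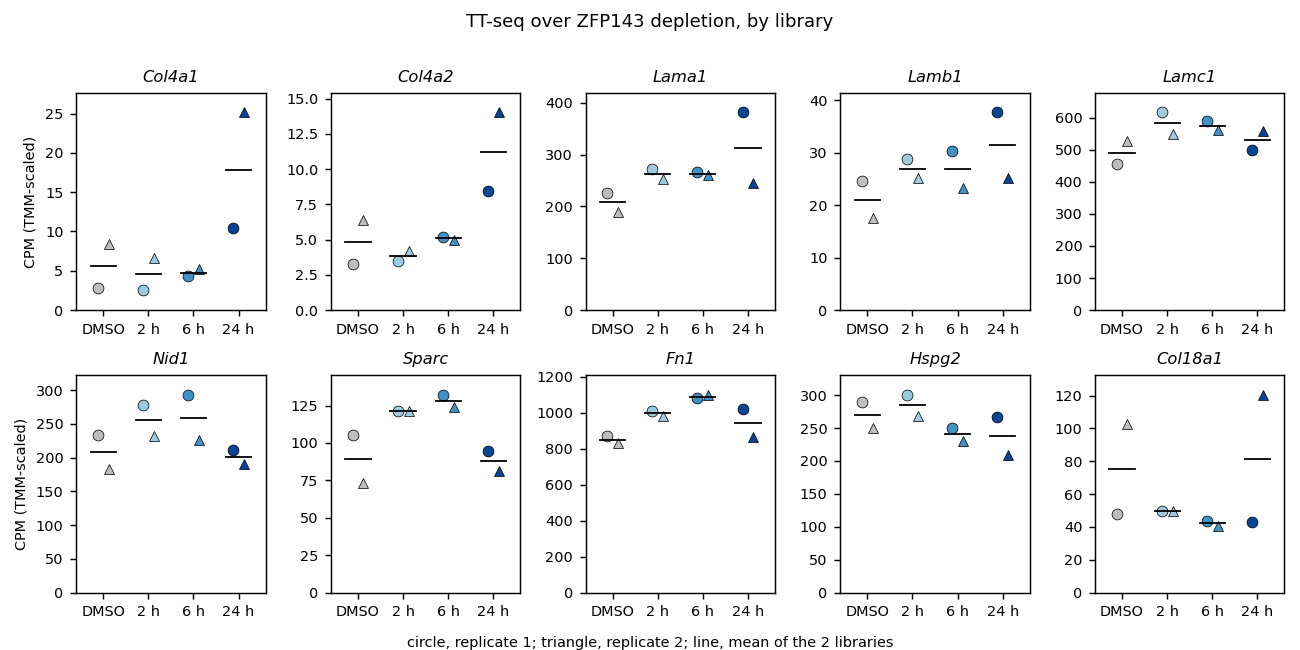
Nascent RNA of each member in TT-seq, in CPM on a linear axis from 0 that differs between panels, by treatment group. Circles and triangles are replicates 1 and 2, and the bar is their mean. The Col4a1 replicates lie at 2.78 and 8.36 CPM in DMSO and 10.4 and 25.1 CPM at 24 h, and the Col18a1 replicates in DMSO and at 24 h also lie far apart.

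The call on type IV collagen in TT-seq depended on the method and on the design of the fit. With edgeR's quasi-likelihood test (adjusted p below 0.05 and an absolute log2 change above 0.5), 0 members were called at 2, 6 and 24 h, against 2.6%, 3.23% and 6.11% of all genes, and 1, 2 and 4 members had an unadjusted p below 0.05. DESeq2 called 0, 0 and 1 members, the last being Col4a1 with a log2 change of 1.66 (adjusted p = 0.0247), where 460 genes in all were called higher and 812 lower, against 361 and 730 in edgeR. For 24 h against 2 h, edgeR called 0 members and 0.0895% of all genes, with 3 members at an unadjusted p below 0.05, and DESeq2 called both type IV collagen chains (adjusted p = 0.0134 and 0.0163) among 229 genes called higher and 195 lower. Without the filter on low counts 3 members were called at 24 h (Col4a1, Col4a2 and Lama1), among 1025 genes called higher and 1178 lower. With the replicate number as a block in edgeR, Col4a1 (log2 1.68, adjusted p = 0.00527), Col4a2 (1.21, adjusted p = 0.0172), Lama1 and Lamb1 were called at 24 h, among 1009 genes called higher and 1214 lower. Deviations of same-numbered libraries correlated in TT-seq (r from 0.190 to 0.622 over the pairs of groups), but there are 2 numbers only and no label says what they share.

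Other members had nascent changes of less than 1 log2 unit. Lama1 was at 227 and 189.7 CPM in DMSO and 381 and 244 at 24 h, with a log2 change of 0.59 (0.14 to 1.04, adjusted p = 0.126 in edgeR), and was called once the second 24 h library was left out (log2 0.88, adjusted p = 0.0275). Without the first 24 h library it was 0.23 (adjusted p = 0.499), and in each such fit the lone library is assumed to vary like the other groups. Lamb1 was at 24.5 and 17.6 CPM in DMSO and 37.6 and 25.2 at 24 h, a log2 change of 0.58 (0.01 to 1.15, adjusted p = 0.22 in edgeR). Sparc was at 105 and 73.3 CPM in DMSO, then at 121 and 121 (2 h), 132 and 124 (6 h), and 94.6 and 81.0 (24 h). Its 6 h libraries stood above DMSO, as did those of 23.4% of all genes tested. Its log2 change was 0.52 (0.13 to 0.92, adjusted p = 0.17 in edgeR). With a replicate block it was called (0.54, adjusted p = 0.037 in edgeR), among 359 genes called higher and 956 lower. It was also called with no count filter (0.51, adjusted p = 0.0461 in edgeR), among 338 higher and 980 lower. Leaving out 1 library gave log2 values from 0.29 to 0.79.

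The remaining genes showed small or unstable values. Col18a1 was at 47.5 and 103 CPM in DMSO and 42.8 and 120.4 at 24 h, so that its interval at 24 h ran from -0.90 to 1.14. At 6 h it lay below both DMSO libraries, as did 23.7% of all genes tested (log2 -0.84, -1.88 to 0.20, adjusted p = 0.387 in edgeR). With no count filter it was called lower at 2 h (-0.60, adjusted p = 0.0288 in edgeR) and 6 h (-0.85, adjusted p = 1.1e-04). In those fits 162 and 338 genes in all were called higher and 774 and 980 lower. Nid1 (log2 -0.05), Lamc1 (0.11), Fn1 (0.15) and Hspg2 (-0.18) at 24 h had intervals that all included 0. At 24 h the steady-state differences of Col4a1 and Col4a2 were 3.03 and 3.33 log2 units and the nascent ones 1.65 and 1.20, while Sparc stood at 0.76 and -0.02 and Hspg2 at 0.70 and -0.18. The tables hold different libraries and were scaled separately, so this difference between assays was not tested.

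**Figure D3:**
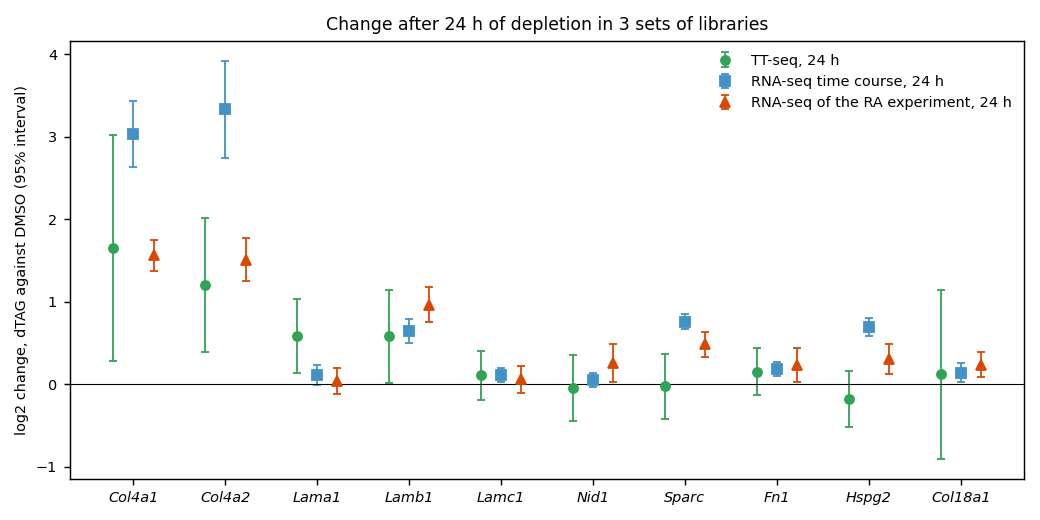
Log2 change after 24 h of dTAG-V1 against DMSO for each member, with 95% intervals, from nascent RNA, from the steady-state time course and from the cells of the RA experiment that had no RA. Col4a1 and Col4a2 have the greatest values in all 3 experiments, from 1.20 to 3.33, and the TT-seq intervals are the widest.

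The RA experiment held separate libraries after 24 h of depletion, which were not named in the choice of the members, although earlier results of these data were known. Before RA, depletion raised Col4a1, Col4a2 and Lamb1. Col4a1 was at 17.3 and 14.6 CPM in DMSO and 46.1 and 48.1 in dTAG, a 2.95-fold increase (log2 1.56, 95% interval 1.37 to 1.75, adjusted p = 4.2e-09 in edgeR). Col4a2 was at 6.29 and 6.24 CPM in DMSO and 15.6 and 19.8 in dTAG, a 2.85-fold increase (log2 1.51, 1.25 to 1.77, adjusted p = 1.2e-06). Both dTAG libraries lay above both DMSO libraries for each chain, as did those of 40.6% of all genes tested.

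Lamb1 rose from 20.8 and 19.3 to 38.2 and 40.2 CPM, or 1.95-fold (log2 0.97, 0.76 to 1.18, adjusted p = 0.00212 in edgeR). That call was lost in DESeq2 (log2 0.94, adjusted p = 0.0547), without the second DMSO library (0.92, adjusted p = 0.025) and without the second dTAG library (0.94, adjusted p = 0.0264). With 3 of 10 members higher and 0 lower, the background was 2.74% of all genes higher and 3.66% lower. Sparc was at 294 and 306 CPM in DMSO and 404 and 435 in dTAG, a log2 change of 0.49 (0.33 to 0.64) that did not exceed the 1.5-fold bound, and the 6 other members had log2 values from 0.04 (Lama1) to 0.31 (Hspg2). The median of the members was 0.28 against 0.06 over all genes.

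The starting level of type IV collagen differed between the experiments. Col4a1 in DMSO was 1.42 ± 0.199 CPM (SD, n = 2) in the time course and 15.9 ± 1.87 CPM in the RA experiment, and Col4a2 0.789 ± 0.311 and 6.27 ± 0.0362. Other members were closer, such as Lama1 with 106 ± 5.57 and 110.0 ± 4.44 CPM. The fold after 24 h of depletion was 8.19 for Col4a1 in the former and 2.95 in the latter. Tables were normalized separately and the difference was not tested.

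RA with the differentiation medium changed 7 of the 10 members in DMSO-treated cells, 4 upward and 3 downward, where 25.8% of all genes were called higher and 18.1% lower. Col4a2 had the greatest increase, from 6.29 and 6.24 to 113 and 113 CPM, or 18.1-fold (log2 4.18 ± 0.11 SE, adjusted p = 4.97e-17 in edgeR). Col4a1 rose from 17.3 and 14.6 to 135 and 134 CPM, or 8.42-fold (log2 3.07 ± 0.09, adjusted p = 2.54e-16). Per kilobase the chains then stood at 18.0 ± 0.0923 CPM for Col4a1 and 17.1 ± 0.0123 for Col4a2 (SD, n = 2), having been at 2.13 ± 0.251 and 0.947 ± 0.00547 before RA.

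Lamb1 and Col18a1 rose as well. Lamb1 went from 20.8 and 19.3 to 90.3 and 109 CPM, or 4.95-fold (log2 2.31, adjusted p = 2.83e-13 in edgeR), and Col18a1 from 128 and 129 to 592 and 628 CPM, or 4.76-fold (log2 2.25, adjusted p = 3.77e-15). The laminin alpha chain went the other way, with Lama1 falling from 107 and 113 to 42.5 and 38.3 CPM (log2 -1.44, adjusted p = 2.97e-10). Nid1 fell from 502 and 432 to 218 and 150.3 CPM (log2 -1.34, adjusted p = 5.59e-07).

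Sparc fell from 294 and 306 to 157 and 145 CPM (log2 -0.99, adjusted p = 8.28e-06 in edgeR), a call lost when libraries were scaled by size alone (-0.67, adjusted p = 0.0834). Hspg2 was at 278 and 243 CPM before and 417 and 342 after RA, with a log2 change of 0.54 (0.36 to 0.73, adjusted p = 0.626 against the 1.5-fold bound), and was called under that scaling (0.86). Lamc1 (log2 -0.34) and Fn1 (0.01) did not pass the test. That scaling moved the median of all genes to 0.35 in DMSO and 0.39 in dTAG.

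In dTAG-treated cells 5 members changed with RA, 3 upward and 2 downward (25% of all genes higher and 18.5% lower). Col4a2 rose from 15.6 and 19.8 to 83.6 and 82.3 CPM (log2 2.22, adjusted p = 3.64e-13 in edgeR), Col4a1 from 46.1 and 48.1 to 119.8 and 112 CPM (1.30, adjusted p = 4.77e-09) and Lamb1 from 38.2 and 40.2 to 128 and 117 CPM (1.64, adjusted p = 7.77e-11). Lama1 fell from 112 and 114 to 36.6 and 37.7 CPM (log2 -1.60, adjusted p = 1.62e-11). Nid1 fell from 542 and 573 to 249.9 and 227 CPM (log2 -1.22, adjusted p = 3.77e-06), a call lost with library size alone (-0.83, adjusted p = 0.011) and in DESeq2 (-1.18, adjusted p = 0.0116). Col18a1 was at 157 and 146 CPM before and 233 and 218 after RA, a log2 change of 0.58 (0.43 to 0.73, adjusted p = 0.445), which was called with library size alone (0.97).

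**Figure D4:**
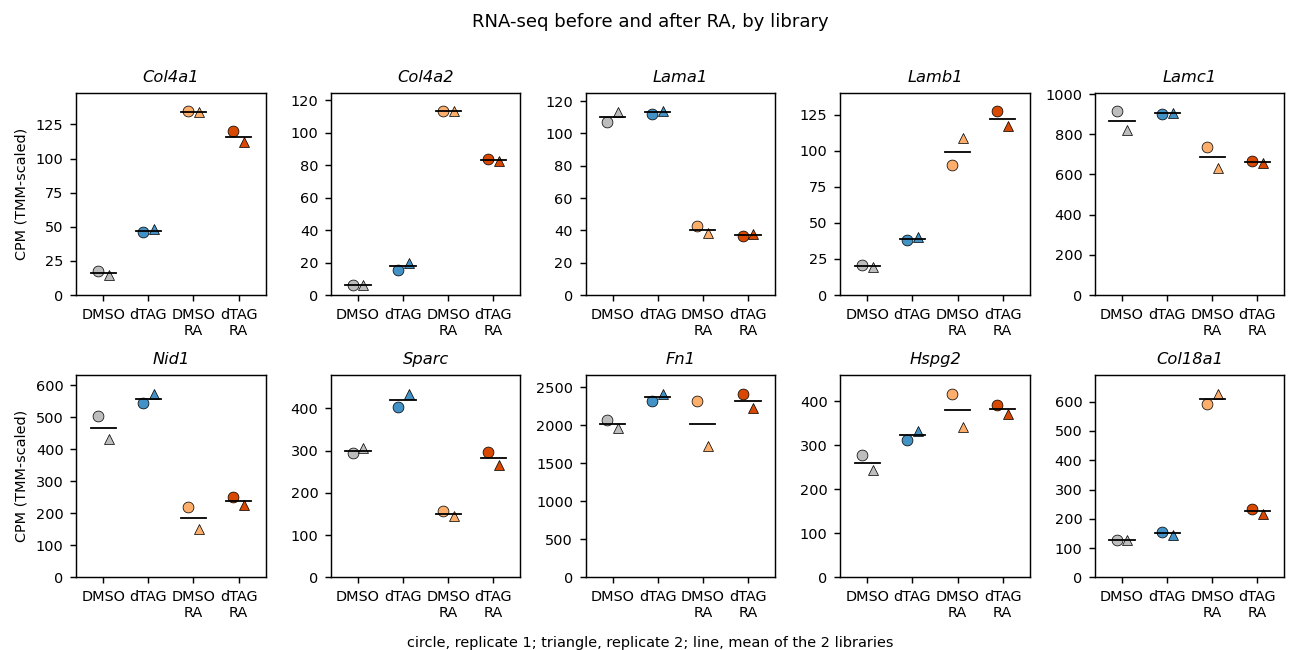
Level of each member in the RA experiment, in CPM on a linear axis from 0 that differs between panels, in DMSO, dTAG, DMSO RA and dTAG RA. Circles and triangles are replicates 1 and 2, and the bar is their mean. Col4a1, Col4a2 and Lamb1 rise with RA in both treatments, Col18a1 is at 592 and 628 CPM in DMSO RA against 233 and 218 CPM in dTAG RA, and Lama1 and Nid1 fall in both.

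The difference between the RA effects in dTAG and in DMSO was tested as an interaction, and 4 members were past the threshold (adjusted p below 0.05, absolute log2 above 0.5), all with a smaller increase in dTAG, where 18% of all genes were lower and 13.7% higher. The log2 difference between the effects was -1.77 (95% interval -2.02 to -1.52, adjusted p = 4.93e-10 in edgeR) for Col4a1 and -1.96 (-2.27 to -1.64, adjusted p = 2.95e-09) for Col4a2. It was -1.67 (-1.88 to -1.46, adjusted p = 1.03e-10) for Col18a1 and -0.66 (-0.94 to -0.39, adjusted p = 3.85e-04) for Lamb1. The difference between dTAG and DMSO was called before RA for Col4a1, Col4a2 and Lamb1, and after RA for Col18a1. For Col18a1 it was 0.24 (0.09 to 0.39) before RA and not called. After RA it was -0.21 for Col4a1, -0.45 for Col4a2 and 0.30 for Lamb1, none of them called. With RA, depletion in dTAG also went from 24 h to 48 h, so RA and longer depletion cannot be told apart there. In the same test 8 of 10 naive pluripotency markers were higher and 0 lower, 1 of 10 endoderm markers higher and 3 lower, 1 of 7 fibroblast and mesenchyme markers, 2 of 4 endothelial and 2 of 4 trophoblast markers higher and 0 lower, and 2 of 5 neural markers higher and 3 lower, and their part in the members' values was not tested.

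Sparc had a difference of 0.42 (0.20 to 0.64, adjusted p = 0.00299 in edgeR), under the size bound, and passed it without the second dTAG RA library (0.55). Hspg2 stood at -0.30 (-0.55 to -0.04, adjusted p = 0.0552), and the intervals of Lama1 (-0.39 to 0.07), Nid1 (-0.22 to 0.44), Lamc1 (-0.34 to 0.13) and Fn1 (-0.32 to 0.26) included 0. The median over the members was -0.23, against -0.07 over all genes.

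**Figure D5:**
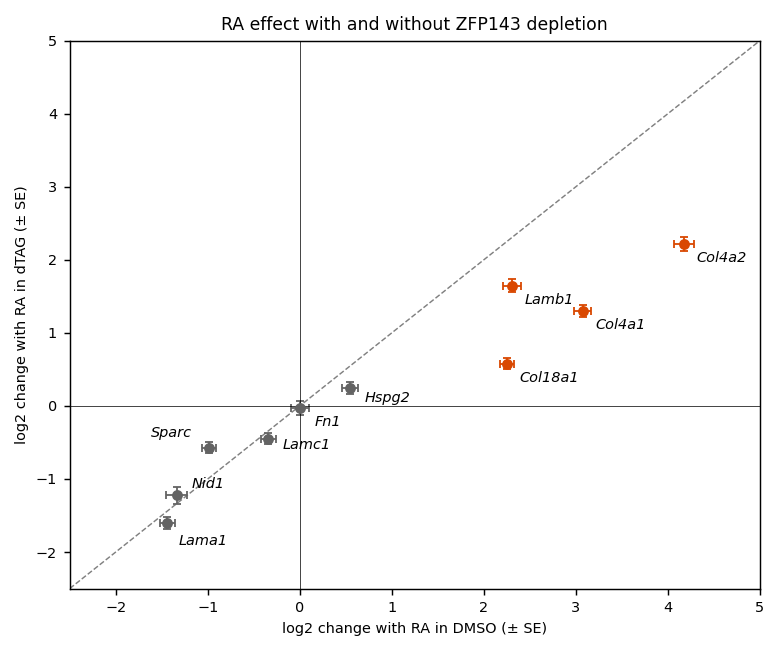
Log2 change with RA in DMSO-treated cells (x axis) against that in dTAG-treated cells (y axis), with 1 point and SE bars for each member, orange where the difference of the effects passed the test, and a dashed line of equal change. Col4a2, Col4a1 and Col18a1 lie farthest below the line of equal change, at 4.18 and 2.22, 3.07 and 1.30, and 2.25 and 0.58.

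After RA, Col18a1 was lower and Sparc higher in depleted than in control cells. Col18a1 was at 592 and 628 CPM in DMSO RA and 233 and 218 in dTAG RA, a 0.37-fold level (log2 -1.43, 95% interval -1.58 to -1.29, adjusted p = 3.3e-10 in edgeR). Sparc was at 157 and 145 CPM in DMSO RA and 298 and 267 in dTAG RA, a 1.87-fold higher level (log2 0.90, 0.75 to 1.06, adjusted p = 3.2e-04). The 1 member higher and the 1 lower compare with 9.1% and 7.36% of all genes.

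For type IV collagen the depleted cells no longer lay above the control. Col4a1 was at 135 and 134 CPM in DMSO RA and 119.8 and 112 in dTAG RA (log2 -0.21, -0.37 to -0.05), and Col4a2 at 113 and 113 against 83.6 and 82.3 CPM (log2 -0.45, -0.62 to -0.27). Both pairs were lower in dTAG RA, as were those of 39.5% of all genes tested, and neither difference exceeded the 1.5-fold bound of the test. Lamb1 was at 90.3 and 109 CPM against 128 and 117 (log2 0.30, 0.13 to 0.48). Lama1, Lamc1, Fn1 and Hspg2 had intervals that included 0, with log2 values from -0.12 to 0.20, and Nid1 stood at 0.37 (0.13 to 0.61).

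ZFP143 binding at the members was compared with that at all genes, using the deposited list of 3189 ZFP143-HA ChIP-seq peaks. Of the 10 members, Lamc1 had a ZFP143 peak at a promoter (2000 bp before to 1000 bp after a transcript start), against 10.1% of 22028 protein-coding genes. The peak began 374 bp upstream of the start, with a fold enrichment of 8.32 against a median of 20.8 over all peaks, and holds the motif match shown above. A second peak, with a fold enrichment of 8.50, lay within the gene at chr1:153294807-153294978. Lamc1 nascent RNA was at 455 and 527 CPM in DMSO and 616 and 549 at 2 h, a log2 change of 0.25 ± 0.13 (SE) that did not pass the test. No ZFP143 peak lay within 10000 bp of a start of any other member, against 14.4% of protein-coding genes with one.

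The nearest ZFP143 peak to the Col4a1 start was 184532 bp away, with a fold enrichment of 57.2, at chr8:11497358-11497888. Relative to Col4a2 it lay beyond the 3′ end, 56249 bp from the closest of its annotated starts. The distances were 24270 bp for Hspg2, 26272 bp for Col18a1, 175841 bp for Lamb1, and more than this for the other members. A CTCF peak at a promoter was found for Lama1 alone, at chr17:67696947-67697309, where it covers the start, against 16.8% of protein-coding genes. Within 10000 bp, 6 members had a CTCF peak, against 40.5% of protein-coding genes. Col4a2 held 6 CTCF peaks within its span, Col18a1 5, Lama1 4, Col4a1 2 and Hspg2 1. The peak lists have no replicates, so no error can be given for them.

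The course of Col4a1 over libraries was compared with that of each of the 9748 genes with a mean of at least 100 counts in both RNA-seq tables. As a description over the 8 libraries of each table, which share treatment groups, the most alike were Mycbp2 (Pearson's r = 0.987 in the time course and 0.992 in the RA experiment), Tmem9b (0.993 and 0.987), Pfn2 (0.986 and 0.990), Cpe (0.988 and 0.985) and Tspan7 (0.985 and 0.984). Col4a2, measured the same way, had 0.979 and 0.986. Among the other members Lamb1 had 0.654 and 0.975 and Hspg2 0.548 and 0.932. Sparc (0.801 and -0.540), Lama1 (0.723 and -0.876) and Col18a1 (-0.528 and 0.796) turned sign between the experiments, and Nid1 (-0.781 and -0.787) and Lamc1 (-0.635 and -0.775) were negative in both.

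The other components of basement membranes, a list of 23 genes, were counted beside the members. This and the other lists were chosen with earlier results known. Genes given with an adjusted p had the largest changes among those called, so these p-values describe the genes and do not test them. For the lists that follow, the share of all genes called was 6.11% in TT-seq at 24 h, 13.7% higher and 12% lower at 72 h, 9.1% and 7.36% after RA, 25.8% and 18.1% with RA in DMSO, and 25% and 18.5% with RA in dTAG. In TT-seq at 24 h the laminin alpha chain Lama3 was higher (log2 1.40, adjusted p = 0.0199 in edgeR), and 8 of the 16 tested had an unadjusted p below 0.05. At 72 h in RNA-seq 8 of 15 were higher and 3 lower, led by Fras1 (4.56, adjusted p = 2.2e-06) and the laminin beta chain Lamb3 (4.17, adjusted p = 4.87e-11). RA raised 9 of 16 in DMSO and 8 in dTAG and lowered 1 in each. After RA 3 of 16 were higher in dTAG RA and 0 lower, among them Lamb3 (2.39, adjusted p = 1.7e-09) and Lamc3 (2.38, adjusted p = 5.11e-06), and in the interaction 2 were higher and 6 lower (13.7% and 18% of all genes). The interaction also held 0 higher and 4 lower of 20 genes for collagen modification and matrix assembly, 4 and 4 of 15 receptors, and 1 and 7 of 16 matrix remodelling genes.

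Genes that make or read the matrix were counted too. Of 18 tested genes for collagen modification and matrix assembly, 3 were higher and 3 lower at 72 h (13.7% and 12% of all genes), with peroxidasin (Pxdn), which cross-links type IV collagen, at a log2 of 3.75 (adjusted p = 1.08e-10 in edgeR) and the lysyl oxidase Loxl1 at 3.11 (adjusted p = 8.21e-05). In TT-seq at 24 h 0 of 18 were called, with 4 at an unadjusted p below 0.05, and after RA 3 of 20 were lower in dTAG RA, including the transglutaminase Tgm2 (-1.23, adjusted p = 2.23e-05) and the prolyl hydroxylase P4ha1 (-0.91, adjusted p = 2.44e-04). RA raised 12 and 11 of these 20 in DMSO and dTAG.

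Of 14 tested cell surface receptors of the basement membrane, 2 were higher and 2 lower at 72 h (13.7% and 12% of all genes). The laminin-binding integrin chains Itga7 and Itgb4 had log2 changes of 2.33 and 1.27 there and of 2.73 and 1.57 after RA (adjusted p = 2.31e-09 and 1.09e-08 in edgeR), where 3 of 15 were higher and 1 lower. In TT-seq at 24 h 0 of 15 were called, with 1 at an unadjusted p below 0.05. Of 13 matrix remodelling genes, 5 were higher and 2 lower at 72 h, led by the metalloproteinase inhibitor Timp3 (4.40, adjusted p = 3.24e-16) and the plasminogen activator Plat (3.25, adjusted p = 2.73e-04). In TT-seq at 24 h the protease Htra1 (1.31, adjusted p = 0.0179) was higher of 11 tested, and after RA 3 of 16 were higher and 2 lower, with Plat at -2.21 (adjusted p = 3.27e-07) and Mmp9 at 1.55 (adjusted p = 3.26e-07).

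Markers of other cell types moved with the same comparisons, and their part in the members' values was not tested. The 14 markers of primitive and parietal endoderm summed to 9.81 to 10.5 CPM in DMSO of the time course, 14.7 to 16.2 at 24 h, 23.6 to 24.2 at 48 h and 24.7 to 24.8 at 72 h. At 72 h 3 of 7 tested were higher and 0 lower, with Sox17 at a log2 of 3.06 (adjusted p = 3.53e-04 in edgeR) and Dab2 at 2.59 (adjusted p = 6.28e-05). Of the 14 markers, Afp and Ttr were at 0 counts in DMSO and at 24 h, and at 72 h had 3 and 2 counts over both libraries. They were named after their values were seen, so they do not stand for the list.

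In the RA experiment the endoderm sum was 9.45 to 9.81 CPM in DMSO, 12.1 to 15.0 in dTAG, 51.5 to 55.5 in DMSO RA and 66.4 to 68.7 in dTAG RA. After RA 1 of 10 was higher and 2 lower in dTAG RA, the latter Dab2 (-1.60, adjusted p = 8.95e-05) and Pth1r (-1.38, adjusted p = 0.00202). In TT-seq the sum was 18.3 to 19.3 CPM in DMSO and 29.5 to 35.4 at 24 h, with Cubn (1.98, adjusted p = 0.018) called of 6 tested.

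The 10 fibroblast and mesenchyme markers summed to 15.4 to 15.6 CPM in DMSO of the time course and 31.6 to 33.9 at 72 h (3 of 5 tested higher, with Twist1 at 3.22 and Col1a1 at 2.50), and to 32.1 to 32.9 CPM in DMSO, 77.9 to 79.4 in DMSO RA, 49.0 to 53.0 in dTAG and 143.1 to 143.4 in dTAG RA (2 of 7 higher after RA, Thy1 at 2.39 and Col1a1 at 1.68). Postn was at 0 in every library of the time course. The endothelial sum was 142 to 147 CPM in DMSO, 231 to 235 at 24 h (0 of 3 tested called, 3 at an unadjusted p below 0.05) and 207 to 213 at 72 h, with Cdh5 and Emcn at 0 throughout the time course and 0 of 3 tested called at 72 h (0 at an unadjusted p below 0.05). Tek (0.92) was called in TT-seq at 24 h, and Kdr (2.63) and Pecam1 (1.69) of 4 after RA.

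Trophoblast markers had 1 of 2 lower at 72 h (Tfap2c, -0.85) and 1 of 4 higher after RA (Hand1, 1.40), and Cdx2 was at 0 in the time course. Of the 10 naive pluripotency markers 4 were lower at 72 h (Prdm14 at -2.01 and Nanog at -1.62), Prdm14 was lower in TT-seq at 24 h (-0.69), and 10 were lower with RA in both treatments. Their sum after RA was 770 to 1129 CPM in DMSO RA and 1413 to 1662 in dTAG RA, with 4 higher in dTAG RA (Esrrb at 2.44 and Klf4 at 1.38). Of the neural markers 1 of 4 was higher (Sox1, 2.27) and 2 lower at 72 h, among them Tubb3 (-0.78), and 2 of 5 were lower after RA (Pax6, -1.97, and Nes, -1.55).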

How the data were processed

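The authors aligned reads to mm10 with STAR and deposited whole-number counts per gene of GENCODE vM25. TT-seq reads were filtered by mapping quality, stripped of duplicates, split by strand and counted over whole genes with HTSeq, so intronic reads are included. RNA-seq was counted by STAR. The deposited ZFP143 peak list gives a fold enrichment for each peak, and the CTCF list, from pooled samples, positions only. Per the labels each group had 2 replicates. The TT-seq columns named for 0 h were taken as DMSO, the group left without another column. The 4C files and the authors' other files were not used here.

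Counts were tested with edgeR 4.0.16 (limma 3.58.1, R 4.3.3) in 1 fit per table of 4 groups, on genes above 10 counts in 4 or more of 8 libraries, with TMM scaling. p-values were adjusted (Benjamini-Hochberg) over all tested genes. TT-seq and the interaction used an adjusted p below 0.05 and an absolute log2 change above 0.5, and RNA-seq used glmTreat against a 1.5-fold change and an adjusted p below 0.01. The pipeline was tested on simulated data. DESeq2 1.42.0, other scalings, no count filter, a replicate block and leaving out each library were alternatives. Nothing in the labels ties replicate numbers of different groups to each other. The p-values rest on a spread between replicates estimated over the 4 groups of a table, with 2 libraries in each.

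The members and lists were chosen with earlier results of these data known. Named genes were all members, Zfp143, the 2 genes of each other list with the largest absolute log2 change among those called at 72 h of RNA-seq, 24 h of TT-seq and after RA, and the 5 genes most correlated with Col4a1 in both RNA-seq tables. A result that this rule would name is not reported here. Slc19a1, and Cdh5, Emcn, Postn, Cdx2, Afp and Ttr as markers at 0 counts, were named after their values were seen. Gene names and positions came from GENCODE vM21, which gave a symbol for 55141 of the 55401 genes. The depth of each library bounds precision as given in the report, and intervals are at 95%.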

Additional observations from a re-analysis of the deposited data

Results flagged for a closer look

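The effect of RA differed between dTAG-treated and DMSO-treated cells for 4 members, by a test of the difference itself. In dTAG, depletion also went from 24 h to 48 h with RA, so RA and longer depletion cannot be told apart. The log2 difference, RA effect in dTAG minus RA effect in DMSO, was -1.77 for Col4a1, -1.96 for Col4a2, -1.67 for Col18a1 and -0.66 for Lamb1. For Col4a1 the RA effect was 3.07 in DMSO and 1.30 in dTAG, for Col4a2 4.18 and 2.22, for Col18a1 2.25 and 0.58 and for Lamb1 2.31 and 1.64. Of 10 naive pluripotency markers 8 were higher in the same test, with a median log2 difference of 1.01, and their part in the members' values was not tested. The groups of 2 libraries are too small for a test of single libraries that stand apart.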

How the results depend on the processing

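Over the alternatives run, 1093 of the members' log2 changes kept their direction and their side of the threshold, 27 gained and 6 lost a call, 26 moved and 48 turned sign, and 108 of the counts stayed within 1.5 times. The cause of each change below was not tested. No count filter gave 1, 2, 3 and 3 members called in TT-seq at 2 h, 6 h, 24 h and 24 h against 2 h. Of all genes, 162, 338, 1025 and 820 were then called higher and 774, 980, 1178 and 490 lower. DESeq2 gave 1 at 24 h, 2 at 24 h against 2 h and 2 in RNA-seq at 48 h. Of all genes, it called 460, 229 and 780 higher and 812, 195 and 729 lower there. The thresholds of TT-seq gave 5 in RNA-seq at 24 h and 5 at 72 h, with 1591 and 3398 of all genes higher and 1187 and 3066 lower. Leaving out 1 library moved the count at 6 h and at 24 h of TT-seq, in fits where a group had 1 library left. With a replicate block, TT-seq had 1 member called at 6 h (Sparc), 4 at 24 h (Col4a1, log2 1.68 and adjusted p = 0.00527 in edgeR, Col4a2, 1.21 and 0.0172, Lama1 and Lamb1) and 2 at 24 h against 2 h, with 359, 1009 and 572 of all genes higher and 956, 1214 and 390 lower, and it changed no other count of members by more than 1.5 times. Deviations of same-numbered libraries correlated with r from 0.190 to 0.622 in TT-seq, -0.0461 to 0.0598 in the time course and -0.0834 to 0.113 in the RA experiment, over 2 numbers only, so the pairing is not established. With ZFP143 peaks of at least the median enrichment, 0 members had one at a promoter. With any CTCF peak within 10000 bp in place of one at a promoter, 6 members had one. With library size alone the sign turned for Nid1 (0.0064) and Sparc (0.033) at 24 h of TT-seq, Lama1 (0.087) and Lamc1 (0.16) after RA, and Fn1 with RA in dTAG (0.37) and in the interaction (0.043). DESeq2 size factors in edgeR and DESeq2 itself gave Fn1 -0.011 with RA in DMSO, 0.014 with RA in dTAG and 0.025 in the interaction. No count filter gave Hspg2 -0.024 after RA and Fn1 -0.020 with RA in DMSO, and the replicate block gave Fn1 -0.0029 there. None of these were called. Leaving out 1 library turned the sign of uncalled changes, with ranges, at 2 h of TT-seq, of -1.15 to 0.76 for Col4a1, -0.73 to 0.24 for Col4a2, -0.0075 to 0.18 for Hspg2 and -1.05 to 0.081 for Col18a1. At 6 h they were -0.82 to 0.78 for Col4a1 and -0.34 to 0.63 for Col4a2. At 24 h they were -0.0019 to 0.23 for Lamc1, -0.20 to 0.13 for Nid1, -0.25 to 0.25 for Sparc and -0.81 to 0.80 for Col18a1, and for 24 h against 2 h -0.10 to 0.54 for Lama1, -0.091 to 0.49 for Lamb1, -0.20 to 0.043 for Fn1 and -0.21 to 1.28 for Col18a1. Before RA they were -6.0e-04 to 0.086 for Lama1 and -0.013 to 0.14 for Lamc1, after RA -0.14 to 0.084 for Lamc1 and -0.11 to 0.18 for Hspg2, with RA in DMSO -0.17 to 0.25 and in dTAG -0.070 to 0.11 for Fn1, and in the interaction -0.19 to 0.029 for Lamc1, -0.11 to 0.43 for Nid1 and -0.20 to 0.21 for Fn1. Low counts limit Col4a1 and Col4a2 most, in TT-seq and in DMSO of the time course.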
